A study of Mus musculus with 24 samples.

Results

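The genes described here are *Aldh3a1* and 9 genes of the antioxidant response that is controlled by the transcription factor NRF2. They are 10 of the 49315 genes counted in MS03 cells and were found by their symbols, which are *Nfe2l2*, *Keap1*, *Nqo1*, *Gclc*, *Gclm*, *Srxn1*, *Txnrd1*, *Aldh3a1*, *Gsr* and *Hmox1*. All 10 passed the filter on low counts. The list was chosen by the measured levels of these genes in the 8 treatment groups, so the levels and the differences between groups are given as a description, with standard errors and intervals and without *P* values. Tests are reported only for genes outside these 10, in lists of the pathway, of related enzymes and of cell type markers. The lists of the pathway and of related enzymes were also chosen with earlier results of these data known. The p-values of their genes do not take that choice into account.

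RNA was sequenced from the MS03 line, Schwann cells with the genotype Nf2-/- that came from an immortalized Nf2 flox/flox line infected with Cre. All groups shared this genotype, and all libraries came from this 1 line. Cells were exposed for 24 h to DMSO, to 1 μM of the FAK (*Ptk2*) kinase inhibitors defactinib, VS-4718, GSK2256098 or IN10018 (ifebemtinib), to 1 μM of PROTAC FAK degrader 1, or to 0.1 μM of the PROTACs GSK215 or BSJ-04-0146. A PROTAC joins a ligand of its target to a ligand of a ubiquitin ligase and so marks the target protein for degradation. Each of the 8 groups had 3 libraries that the labels call biological replicates, with nothing on how cultures were separated, so a p-value here measures only the spread between these samples, which may be technical. Total counts ranged from 14472462 to 27449516 per library, and the 9 PROTAC libraries (14472462 to 21588406) were shallower than the 12 kinase inhibitor libraries (21654444 to 26550878). *Ptk2* itself averaged 95.3 CPM (counts scaled to the effective size of the library) with DMSO and from 77.9 CPM with GSK215 to 97.7 CPM with PROTAC FAK degrader 1, levels that do not report on the protein. Counts per gene cannot show the deletion of *Nf2*.

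NRF2, the product of *Nfe2l2*, is held in the cytoplasm by KEAP1, an adaptor of the CUL3 ubiquitin ligase that has it degraded. Oxidants and electrophiles modify cysteines of KEAP1, after which NRF2 accumulates, pairs with small MAF proteins and binds antioxidant response elements (ARE) near genes for glutathione synthesis, thioredoxin reduction, quinone reduction and heme breakdown. ALDH3A1 oxidizes aldehydes that arise from lipid peroxidation, and its gene is also a known target of the aryl hydrocarbon receptor.

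Promoter windows of 300 bases, 250 before and 50 after the annotated start, were taken from RefSeq (GRCm38.p6). They were found for 6 of the 10 genes, with 8 windows in all because *Txnrd1* has 3. The ARE core was searched as TGACNNNGC on both strands, and it was present in 4 of these 8 windows, beside 12.4% of 32851 windows of all genes. The 4 windows that hold it are printed below, 5′ to 3′ on the strand of the gene, with the match in capitals, since they belong to the regulator itself and to 3 of its classical targets. In the windows of *Srxn1*, *Gclm* and *Txnrd1* the match lies on the opposite strand, so the capitals read as its reverse complement. The windows are at chr2:75704614-75704913 (minus strand) for *Nfe2l2*, chr2:152105274-152105573 (plus) for *Srxn1*, chr3:122245307-122245606 (plus) for *Gclm* and chr10:82858956-82859255 (plus) for the second start of *Txnrd1*.
Nfe2l2: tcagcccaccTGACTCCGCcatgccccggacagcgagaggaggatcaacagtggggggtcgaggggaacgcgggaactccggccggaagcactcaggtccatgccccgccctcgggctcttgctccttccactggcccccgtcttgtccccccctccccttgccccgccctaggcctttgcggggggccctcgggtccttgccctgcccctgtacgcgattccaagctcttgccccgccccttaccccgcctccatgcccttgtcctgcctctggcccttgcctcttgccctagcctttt
Srxn1: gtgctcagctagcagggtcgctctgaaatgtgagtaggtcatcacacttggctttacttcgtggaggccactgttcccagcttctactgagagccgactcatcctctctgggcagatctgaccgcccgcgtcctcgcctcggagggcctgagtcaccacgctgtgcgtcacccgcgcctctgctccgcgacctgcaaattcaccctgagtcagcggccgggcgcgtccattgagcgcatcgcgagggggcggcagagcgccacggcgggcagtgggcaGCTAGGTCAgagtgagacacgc
Gclm: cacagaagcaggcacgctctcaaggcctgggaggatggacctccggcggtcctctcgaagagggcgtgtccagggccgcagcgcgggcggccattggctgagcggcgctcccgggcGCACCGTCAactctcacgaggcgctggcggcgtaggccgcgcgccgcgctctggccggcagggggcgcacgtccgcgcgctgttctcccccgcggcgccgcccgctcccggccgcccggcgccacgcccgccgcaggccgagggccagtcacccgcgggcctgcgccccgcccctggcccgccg
Txnrd1: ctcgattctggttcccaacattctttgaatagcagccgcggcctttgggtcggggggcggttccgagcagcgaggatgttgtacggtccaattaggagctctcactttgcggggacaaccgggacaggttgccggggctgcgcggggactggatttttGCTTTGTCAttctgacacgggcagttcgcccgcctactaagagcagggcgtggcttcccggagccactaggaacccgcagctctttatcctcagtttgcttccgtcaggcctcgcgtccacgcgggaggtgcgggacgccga
Relative to the start, the matches lay at -240 to -232 in *Nfe2l2*, at 29 to 37 in *Srxn1*, at -134 to -126 in *Gclm* and at -92 to -84 in *Txnrd1*. The windows of *Nqo1* and *Keap1* and the other windows of *Txnrd1* do not hold these letters. The core of the element bound by the aryl hydrocarbon receptor, searched as GCGTG on both strands, was present in 6 of the 8 windows, beside 32.4% of all windows. *Gclc*, *Aldh3a1*, *Gsr* and *Hmox1* had no entry. A match is a run of letters and not a measured binding site.

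*Aldh3a1* had the widest range of the 10 genes, 12.4-fold between the group with the lowest mean, PROTAC FAK degrader 1, and the group with the highest, BSJ-04-0146. The gene (ENSMUSG00000019102) lies at chr11:61207537-61218421 on the plus strand of GRCm38. The DMSO libraries had 20.2, 19.4 and 19.9 CPM, a mean of 19.9 ± 0.415 (SD, n = 3). GSK215 libraries had 176, 186 and 184 CPM, and BSJ-04-0146 libraries had 214, 216 and 206 CPM. Every library of these PROTACs was above every other library of the series. The level was 9.19-fold that of DMSO with GSK215 (log2 difference 3.20, SE 0.050) and 10.7-fold with BSJ-04-0146 (3.42, SE 0.049).

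With the kinase inhibitors, *Aldh3a1* stood at 30.6, 31.4 and 29.5 CPM after defactinib and at 49.1, 47.8 and 52.1 CPM after VS-4718. GSK2256098 libraries had 57.3, 57.8 and 55.2 CPM. IN10018 libraries had 24.5, 20.9 and 21.3 CPM, the lowest of the 4 inhibitors and 1.12-fold the level of DMSO. The 4 inhibitors thus formed 4 levels whose libraries did not overlap with each other or with DMSO. PROTAC FAK degrader 1, given at the same 1 μM, was the only compound below DMSO, with 15.6, 16.6 and 19.1 CPM and a log2 difference of -0.22 (SE 0.067). Its highest library lay just under the lowest DMSO library at 19.4 CPM. When counts were scaled to library totals alone, in place of TMM scaling, the difference was -0.14 and the libraries overlapped with DMSO.

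**Figure D1:**
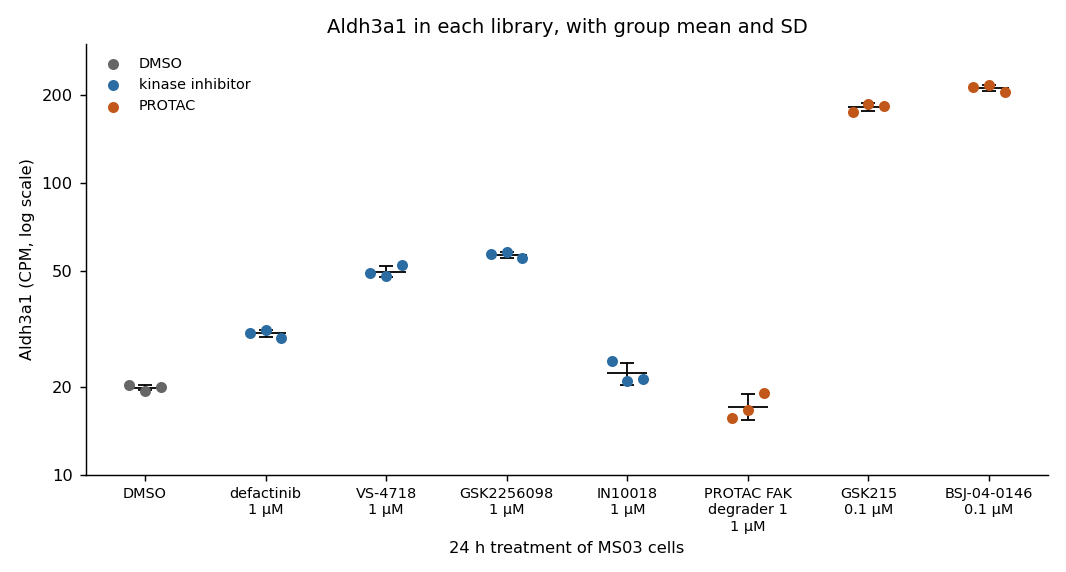
*Aldh3a1* in CPM (log scale) in each of the 24 libraries, by treatment. Points are libraries, the bar is the mean and the whiskers are the SD (n = 3). The GSK215 and BSJ-04-0146 libraries sit between 176 and 216 CPM, whereas those of PROTAC FAK degrader 1 sit between 15.6 and 19.1 CPM.

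*Hmox1*, which encodes the inducible heme oxygenase that breaks heme into biliverdin, iron and carbon monoxide, had another order of groups. It lies at chr8:75093621-75100589 (plus strand). DMSO libraries had 28.5, 27.8 and 28.8 CPM. PROTAC FAK degrader 1 libraries had 104, 105 and 95.5 CPM, 3.58-fold the level of DMSO (log2 difference 1.84, SE 0.050). No other library of the series passed 42.2 CPM. That value was in the BSJ-04-0146 group, where the libraries had 42.2, 41.7 and 40.1 CPM (1.46-fold). GSK215 libraries, at 30.9, 31.4 and 30.8 CPM, were only just above DMSO (log2 difference 0.13, SE 0.058). With library totals in place of TMM scaling that difference was 0.25.

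Among the kinase inhibitors *Hmox1* was lower than DMSO with 3 compounds and higher with IN10018. It stood at 27.4, 26.6 and 25.7 CPM with defactinib and at 22.7, 23.7 and 25.1 CPM with VS-4718. GSK2256098 gave 23.7, 20.3 and 20.9 CPM (log2 difference -0.39, SE 0.059), and IN10018 gave 33.3, 31.2 and 35.4 CPM (0.23, SE 0.056). In each of these 4 groups the libraries did not overlap with those of DMSO, and VS-4718 and GSK2256098 overlapped with each other. The inhibitors that had the most *Aldh3a1*, VS-4718 and GSK2256098, had the least *Hmox1*.

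**Figure D2:**
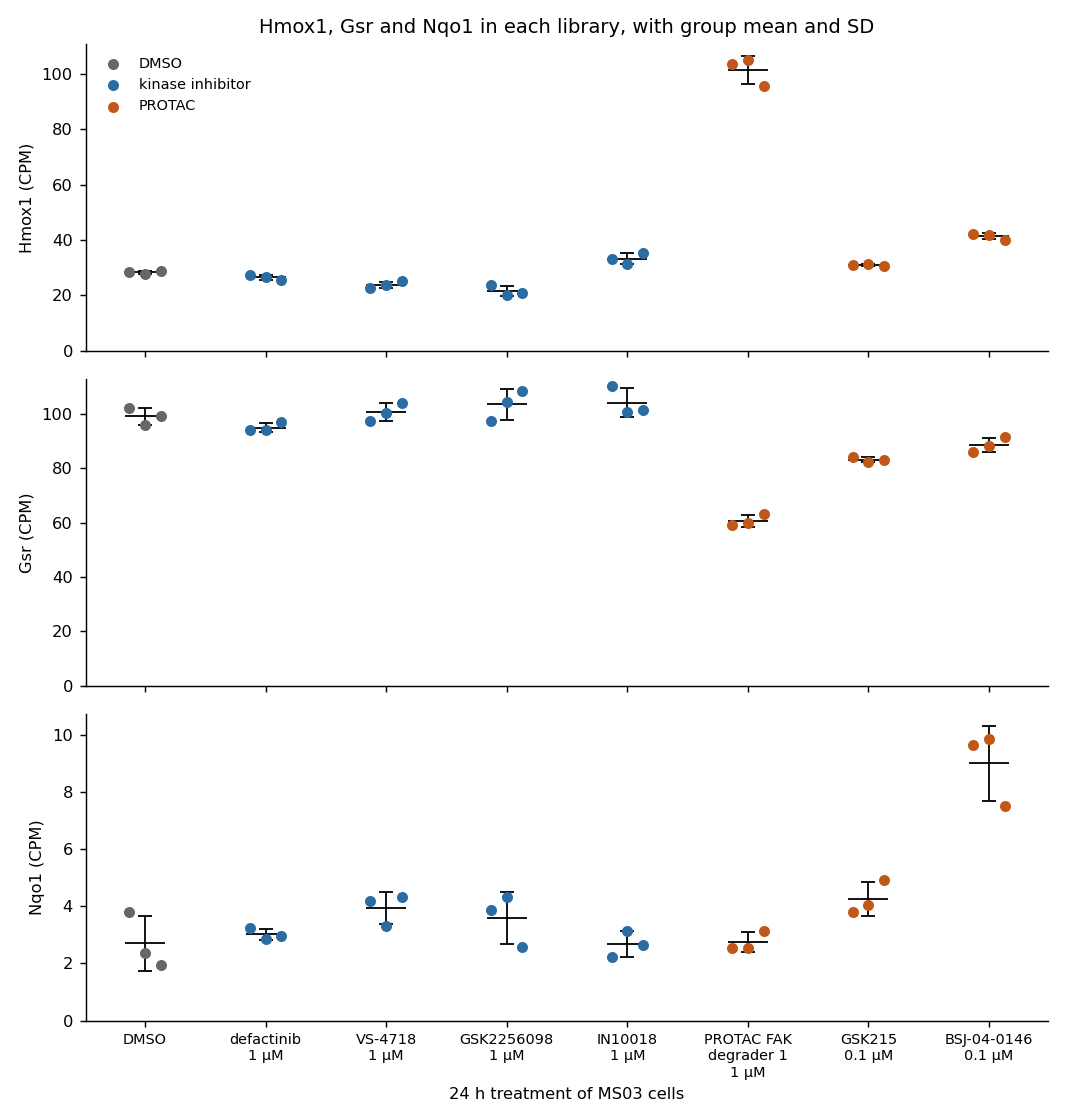
*Hmox1*, *Gsr* and *Nqo1* in CPM in each of the 24 libraries, by treatment. Points are libraries, the bar is the mean and the whiskers are the SD (n = 3). PROTAC FAK degrader 1 stands apart in *Hmox1* (95.5 to 105 CPM) and *Gsr* (59.2 to 63.1 CPM), and BSJ-04-0146 in *Nqo1* (7.50 to 9.87 CPM).

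Markers of Schwann cells also differed between these groups. The summed level of 8 markers was 90.2 to 93.3 CPM with DMSO, 115 to 120 CPM with defactinib, 151 to 166 CPM with VS-4718, 111 to 120 CPM with GSK2256098 and 90.9 to 94.8 CPM with IN10018. It was 262 to 270 CPM with GSK215, 249 to 262 CPM with BSJ-04-0146 and 61.5 to 64.1 CPM with PROTAC FAK degrader 1. Of 7 markers tested, 7 passed as higher with GSK215 (54.7% of all genes called in either direction) and with BSJ-04-0146 (54.6%), and 1 as higher and 3 as lower with PROTAC FAK degrader 1 (66.8%). *Sox10*, the defining transcription factor, averaged 20.1 CPM with DMSO, 97.6 CPM with GSK215 and 12.2 CPM with PROTAC FAK degrader 1, whereas *S100b* and *Gfap* were under 1 CPM in every library. Of 5 fibroblast markers *Lum* had no count in any library and *Dcn* at most 3, but *Col1a1* averaged 392 CPM with DMSO, and the summed level was 395 to 414 CPM with DMSO, 291 to 297 CPM with PROTAC FAK degrader 1 and between 361 and 515 CPM in the other groups. That sum is mostly *Col1a1*, which averaged 446 CPM with GSK215 and 346 CPM with BSJ-04-0146. *Pdgfra*, another fibroblast marker, averaged 12.4 CPM with DMSO, 26.3 CPM with GSK215, slightly less with BSJ-04-0146, and 8.76 CPM with PROTAC FAK degrader 1. Of 5 macrophage markers, *Ptprc* and *Adgre1* had at most 1 count, and *Cd68* averaged 3.35 CPM with DMSO and 10.9 CPM with PROTAC FAK degrader 1, where the summed level was 11.2 to 12.0 CPM beside 3.71 to 4.08 CPM with DMSO and 3.79 to 9.34 CPM in the other groups. *Csf1r*, the other macrophage marker tested, averaged 0.444 CPM with DMSO, 0.288 CPM with PROTAC FAK degrader 1, 0.776 CPM with GSK215 and 0.958 CPM with BSJ-04-0146. The 4 endothelial markers summed to less than 1 CPM in every library. Their part in the levels of *Aldh3a1* and *Hmox1* was not tested, and in bulk RNA a change in the share of cells and a change in RNA per cell cannot be told apart.

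*Nqo1* encodes a quinone reductase that is often read as a reporter of NRF2 activity, an activity that was not measured here. It was the least abundant of the 10 genes per length, with 47 to 182 counts per library. It lies at chr8:107388225-107403206 (minus strand). DMSO libraries spread from 1.94 to 3.80 CPM (2.70 ± 0.975, SD, n = 3). BSJ-04-0146 libraries had 9.67, 9.87 and 7.50 CPM, 3.38-fold the level of DMSO (log2 difference 1.75, SE 0.171), and all were above every other library. GSK215 libraries had 3.81, 4.06 and 4.94 CPM (1.61-fold, log2 difference 0.69, SE 0.192), of which the lowest, at 3.81 CPM, was next to the highest DMSO library, at 3.80 CPM. The other 5 compounds gave means between 2.67 CPM (IN10018) and 3.95 CPM (VS-4718), and libraries of each overlapped with DMSO. Because 2.70 CPM is small beside the 4 CPM that the log2(CPM + 4) scale adds, the difference with BSJ-04-0146 was 0.96 on that scale. Without DMSO replicate 3, the lowest library, the difference with defactinib went from 0.17 to -0.014.

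The regulators moved less than *Aldh3a1*, *Hmox1* and *Nqo1*. *Nfe2l2* (chr2:75675513-75704641, minus strand) had 77.2, 72.3 and 74.1 CPM with DMSO. It was highest with VS-4718, at 95.4, 99.2 and 96.5 CPM, and with BSJ-04-0146, at 96.5, 95.8 and 97.7 CPM, each 1.30-fold the level of DMSO. PROTAC FAK degrader 1 followed at 87.9 ± 4.88 CPM, GSK215 at 82.3 ± 4.39 CPM and GSK2256098 at 80.4 ± 2.29 CPM (SD, n = 3), whereas defactinib (75.3 ± 1.82 CPM) and IN10018 (75.1 ± 1.02 CPM) overlapped with DMSO. VS-4718 and BSJ-04-0146, whose *Nfe2l2* levels overlapped with TMM scaling but not with library totals, differed widely in *Aldh3a1*, with 49.7 and 212 CPM. *Keap1* (chr9:21229730-21239361, minus strand) stayed between 49.7 and 67.0 CPM in all 24 libraries. Its group means ran from 53.4 CPM with defactinib to 64.6 CPM with PROTAC FAK degrader 1, 1.21-fold apart. An antisense gene of at most 288 counts, *Gm16754*, shares 206 exon bases with *Keap1*, and the strand setting of the counting is not given in the sources used here.

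Of the glutathione genes, *Gclc* and *Gclm* encode the catalytic and the modifier subunit of glutamate-cysteine ligase, the first step of glutathione synthesis, and *Gsr* encodes the reductase that returns oxidized glutathione to its reduced form. *Gclc* (chr9:77754535-77794485, plus strand) had group means from 66.8 CPM (GSK215) to 75.1 CPM (VS-4718) beside 71.2 ± 1.92 CPM with DMSO (SD, n = 3), the narrowest range of the 10. *Gclm* (chr3:122245557-122270732, plus strand) had 80.3 ± 4.32 CPM with DMSO and was lowest with PROTAC FAK degrader 1, at 68.2, 67.8 and 67.1 CPM (log2 difference -0.25, SE 0.041). Neither subunit differed from DMSO by more than 0.25 on the log2 scale with any compound. *Gclm* shares 296 exon bases with the antisense gene *Gm17494*, which had at most 159 counts.

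*Gsr* (chr8:33652523-33698163, plus strand) had 102, 95.9 and 99.3 CPM with DMSO. PROTAC FAK degrader 1 libraries had 59.2, 59.8 and 63.1 CPM, 61.2% of DMSO and a log2 difference of -0.71 (SE 0.043). They lay below the other 21 libraries, of which the lowest had 82.3 CPM. The lowest *Gsr* therefore came from the same libraries as the highest *Hmox1*. GSK215 libraries had 84.1, 82.3 and 83.0 CPM (-0.25, SE 0.042) and BSJ-04-0146 libraries 86.2, 88.2 and 91.5 CPM (-0.16, SE 0.042), all below DMSO. With library totals the difference with BSJ-04-0146 was -0.052 and its libraries overlapped with DMSO. The libraries of each kinase inhibitor overlapped with those of DMSO.

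In the thioredoxin branch, *Txnrd1* encodes the reductase of cytosolic thioredoxin and *Srxn1* encodes sulfiredoxin, which repairs overoxidized peroxiredoxins. With DMSO, *Txnrd1* (chr10:82833951-82897712, plus strand) was the most abundant of the 10 genes per length. Its RPKM (CPM divided by the exon length in kilobases) was 39.9 ± 0.357, beside 10.2 ± 0.214 for *Aldh3a1* (SD, n = 3). With GSK215 and BSJ-04-0146 *Aldh3a1* exceeded it, at 93.8 and 109 RPKM beside 34.3 and 36.2 for *Txnrd1*. With PROTAC FAK degrader 1 *Hmox1* did, at 57.9 RPKM beside 37.0 for *Txnrd1*. The DMSO libraries of *Txnrd1* had 280, 282 and 285 CPM. Libraries of defactinib (243, 247 and 250 CPM), GSK215 (248, 243 and 239 CPM) and BSJ-04-0146 (253, 251 and 264 CPM) were lower, with log2 differences of -0.19, -0.22 and -0.14, as were those of PROTAC FAK degrader 1 (-0.11) and IN10018 (-0.05). VS-4718 libraries, at 288, 298 and 298 CPM, were above DMSO (0.06). With library totals the log2 difference of *Txnrd1* was -0.0319 with BSJ-04-0146 and -0.0262 with PROTAC FAK degrader 1, and both groups overlapped with DMSO. *Srxn1* (chr2:152105516-152111376, plus strand) ranged from 30.1, 30.3 and 29.1 CPM with defactinib to 46.3, 45.2 and 43.4 CPM with BSJ-04-0146, beside 40.7, 37.0 and 37.5 CPM with DMSO. The log2 differences were -0.36 (SE 0.050) and 0.23 (SE 0.049). When library totals were used in place of TMM scaling, the small differences of *Txnrd1* (-0.094), *Srxn1* (-0.036) and *Gclm* (-0.030) with GSK215 shrank, with *Srxn1* and *Gclm* overlapping with DMSO, and that of *Gsr* was -0.13. The differences of *Hmox1* and *Nfe2l2* with GSK215 grew instead, to 0.25 and 0.26.

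**Figure D3:**
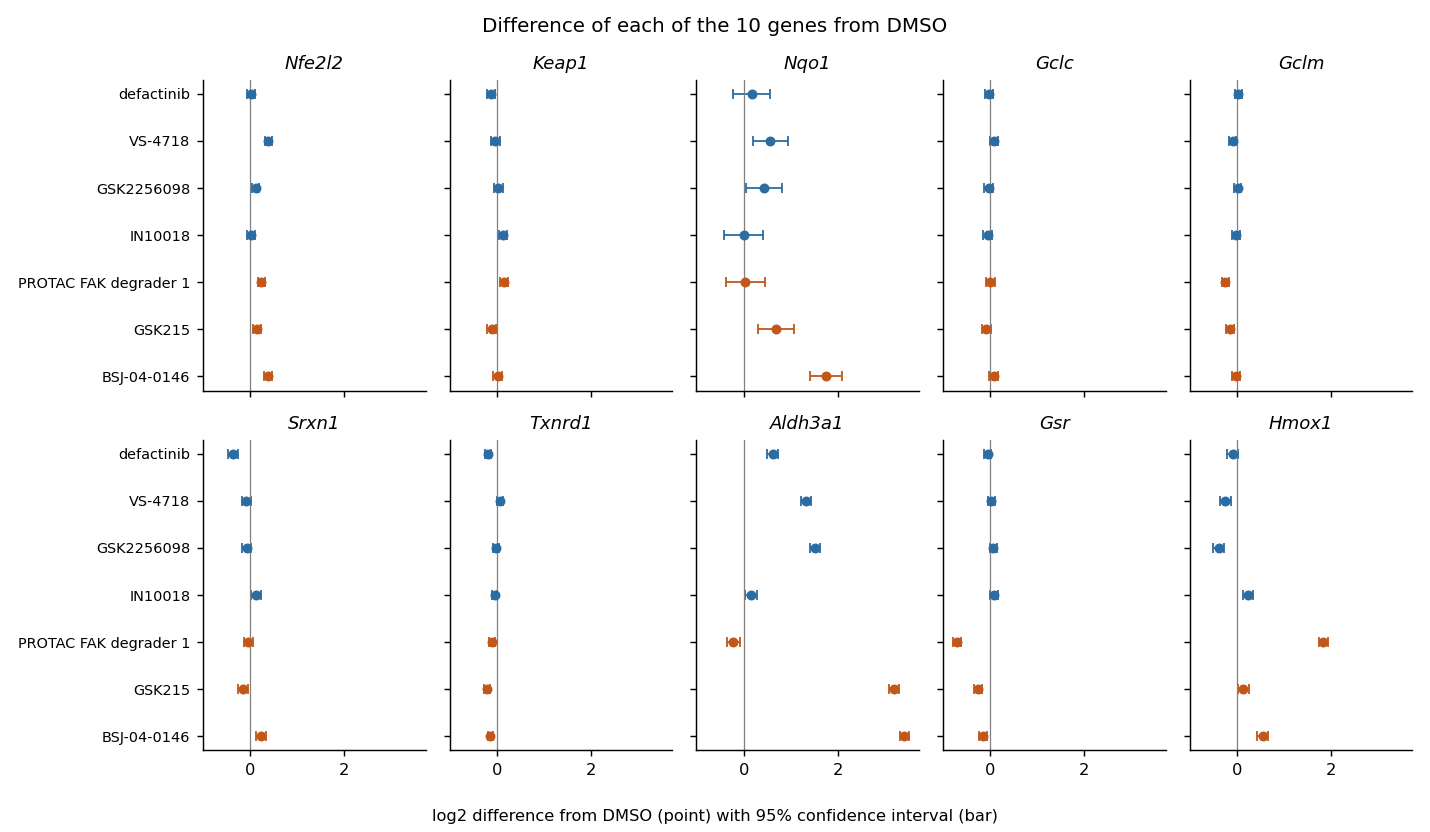
Log2 difference from DMSO of each of the 10 genes with each of the 7 compounds. Points are estimates over 3 libraries per group and bars are 95% confidence intervals, with kinase inhibitors in blue and PROTACs in orange. *Aldh3a1* reaches 3.42 with BSJ-04-0146 and *Hmox1* reaches 1.84 with PROTAC FAK degrader 1, and most other points lie near 0.

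Counted over the 10 genes, the number whose 3 treated libraries did not overlap with the 3 DMSO libraries was 5 with defactinib, where 35.8% of the 16070 genes tested did not overlap. It was 5 with VS-4718 (47.6% of all genes), 3 with GSK2256098 (31.2%) and 4 with IN10018 (31.0%). With the PROTACs it was 7 with PROTAC FAK degrader 1 (69.7%), 10 with GSK215 (60.7%) and 8 with BSJ-04-0146 (59.3%). With GSK215, 4 genes were higher (30.5% of all genes) and 6 lower (30.2%). With BSJ-04-0146, 6 were higher (30.2%) and 2 lower (29.1%), and with PROTAC FAK degrader 1, 3 were higher (35.7%) and 4 lower (34.0%). These counts depended on the scaling. With library totals they were 4 higher and 2 lower with GSK215, 7 and 0 with BSJ-04-0146, and 3 and 2 with PROTAC FAK degrader 1, beside 62.2%, 59.4% and 69.9% of all genes in either direction. The median log2 difference over the 10 genes was between -0.10 (GSK215) and 0.15 (BSJ-04-0146), and over all genes tested it was 0.02 with both. The 7 contrasts share the same DMSO libraries, and since they chose the genes, nothing is read from the counts.

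GSK215 and BSJ-04-0146 can be set side by side because both were used at 0.1 μM. All 10 genes were lower with GSK215, and in all 10 the libraries did not overlap, beside 34.2% of all genes in either direction and 18.8% in this direction. With library totals *Keap1* and *Txnrd1* overlapped and the other 8 genes did not. For *Aldh3a1* the gap was 182 ± 5.44 against 212 ± 5.38 CPM (SD, n = 3), a log2 difference of -0.22 with a 95% confidence interval of -0.30 to -0.14. For *Nqo1* it was 4.27 ± 0.592 against 9.01 ± 1.31 CPM, a log2 difference of -1.07 (-1.41 to -0.73). *Hmox1* (-0.41, -0.53 to -0.30), *Srxn1* (-0.39, -0.49 to -0.28) and *Nfe2l2* (-0.24, -0.32 to -0.15) followed. The remaining 5 genes differed by 0.16 or less on the log2 scale, with *Gclc* at -0.16 and *Txnrd1* at -0.08.

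The 5 compounds used at 1 μM gave 10 pairs. *Aldh3a1* libraries did not overlap in any of these pairs, and the closest were VS-4718 and GSK2256098, where GSK2256098 was higher by 0.19 on the log2 scale (0.10 to 0.29). The farthest were PROTAC FAK degrader 1 and GSK2256098, 1.73 apart, with the interval of the difference from -1.85 to -1.62. In *Hmox1* PROTAC FAK degrader 1 exceeded every kinase inhibitor, by 1.61 (1.51 to 1.71) against IN10018 and up to 2.23 (2.13 to 2.34) against GSK2256098. In *Gsr* the log2 difference of PROTAC FAK degrader 1 was -0.65 (-0.73 to -0.56) from defactinib and -0.78 (-0.87 to -0.69) from IN10018, whereas VS-4718, GSK2256098 and IN10018 overlapped in *Gsr*. In *Nqo1* the pairs of defactinib with GSK2256098, IN10018 and PROTAC FAK degrader 1 overlapped, and the interval for the last of these, from -0.55 to 0.27, spans both directions. Set against the mean of the 4 inhibitors, PROTAC FAK degrader 1 had libraries beyond all 12 of theirs in 4 genes, beside 50.1% of all genes, namely *Aldh3a1* (-1.12, -1.23 to -1.02), *Hmox1* (1.97, 1.89 to 2.04), *Gsr* (-0.73, -0.80 to -0.66) and *Gclm* (-0.23, -0.29 to -0.16), and with library totals also in *Keap1*. GSK215 and BSJ-04-0146 were used at a lower dose than the other 5 compounds, so no difference between the doses was computed.

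Other known NRF2 targets were tested in a list of 31, of which 26 had enough counts. Tests of single genes are those of edgeR's quasi-likelihood method, with p-values adjusted by Benjamini-Hochberg over 16070 genes and a threshold of 0.05. Genes that are named beside a count of 5 or fewer, outside the rule for named genes, were named after their values were seen. With PROTAC FAK degrader 1, 14 rose and 10 fell, beside 66.8% of all genes called, and the median log2 fold change was 0.24 beside 0.0045 over all genes. With GSK215, 9 rose and 15 fell (54.7% of all genes called, median -0.16), and with BSJ-04-0146, 11 rose and 5 fell (54.6%, median 0.06), the 5 being *Slc7a11* (-2.57), the export pumps *Abcc1* (-0.48) and *Abcc4* (-0.19), *Cbr3* (-0.37) and *Ugdh* (-0.20). Both directions were thus called with each PROTAC. With library totals in place of TMM scaling the split was 15 higher and 7 lower with PROTAC FAK degrader 1, 10 and 9 with GSK215, and 16 and 4 with BSJ-04-0146. Among the kinase inhibitors, defactinib had 3 higher (*Slc7a11*, *Gstm1* and *Ephx1*) and 7 lower (22.4% of all genes called). VS-4718 had 6 higher and 3 lower (39.2%), the lower ones being *Slc7a11*, *Blvrb* and *Abcc1*. IN10018 had 5 higher (*Slc7a11*, *Sqstm1*, *Ugdh*, *Taldo1* and *Ftl1*, all by 0.27 or less on the log2 scale) and 2 lower, *Abcc1* and *Abcc4* (13.3%). GSK2256098 had 1 higher, *Gsta4* (0.42), and 3 lower, *Slc7a11*, *Me1* and *Sqstm1* (12.5%), and with library totals the splits of defactinib, IN10018 and GSK2256098 were 5 and 5, 8 and 1, and 2 and 2. The count of 4 with GSK2256098 was 2 without DMSO replicate 1, DMSO replicate 2, GSK2256098 replicate 1 or GSK2256098 replicate 2 and 1 without GSK2256098 replicate 3. Between GSK215 and BSJ-04-0146, 14 of the 26 targets were lower with GSK215 and 1, *Abcc1* (0.29), was higher, where 12.6% and 9.88% of all genes were (22.5% together). Against the mean of the kinase inhibitors, PROTAC FAK degrader 1 had 15 higher and 9 lower targets, beside 72.3% of all genes called.

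**Figure D4:**
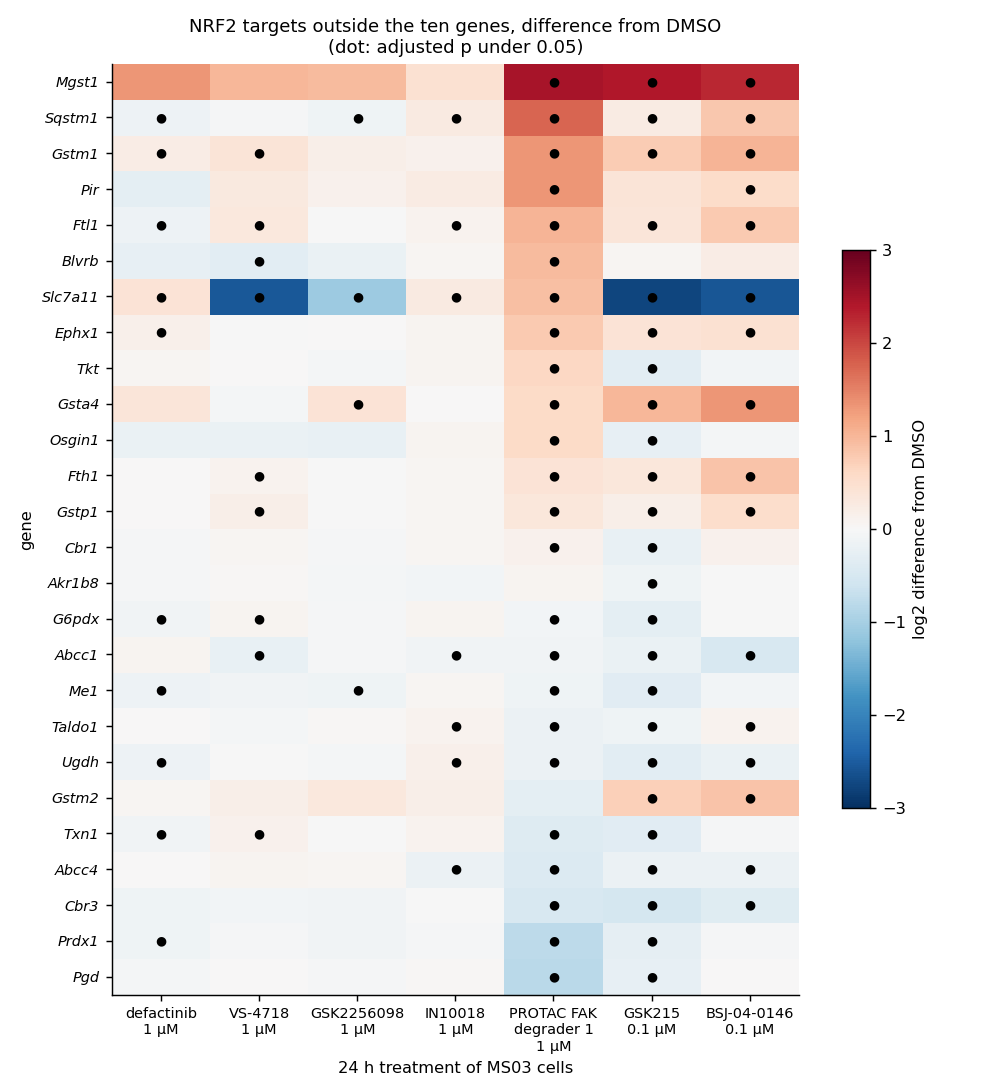
Log2 difference from DMSO of 26 known NRF2 targets outside the 10 genes, by compound. Color gives the difference, and a dot marks an adjusted p under 0.05 (edgeR's quasi-likelihood test). The column of PROTAC FAK degrader 1 holds 14 higher and 10 lower genes, and *Slc7a11* is lower with VS-4718, GSK2256098, GSK215 and BSJ-04-0146 and higher with the other 3 compounds.

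The target with the largest change was *Slc7a11*, the cystine transporter that supplies cysteine for glutathione. It fell from 30.2 ± 0.911 CPM with DMSO to 4.51 ± 0.446 CPM with GSK215 (log2 fold change -2.75, SE 0.080, adjusted p = 1.96e-27), to 5.08 CPM with BSJ-04-0146 (-2.57), to 5.20 CPM with VS-4718 (-2.54) and to 14.1 CPM with GSK2256098 (-1.10). It rose to 56.6 CPM with PROTAC FAK degrader 1 (0.91), to 40.0 CPM with defactinib (0.40) and to 36.5 CPM with IN10018 (0.27). The 4 compounds with the most *Aldh3a1* were therefore the 4 with the least *Slc7a11*.

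PROTAC FAK degrader 1 gave the largest rises of 4 further targets. *Sqstm1*, which encodes the autophagy receptor p62 that can bind KEAP1, rose from 353 ± 9.99 to 1191 ± 57.8 CPM (log2 fold change 1.76, SE 0.035, adjusted p = 2.73e-33), and it rose to 617 CPM with BSJ-04-0146 (0.81). The glutathione transferase *Gstm1* rose from 20.0 to 50.1 CPM (1.32), the ferritin light chain *Ftl1* from 910 to 1831 CPM (1.01) and *Blvrb*, which encodes a flavin reductase also called biliverdin reductase B, from 7.15 to 13.8 CPM (0.95). These rises were in the same libraries as that of *Hmox1*. In those libraries 10 of the 26 tested targets fell, and *Pgd*, named after its values were seen, went from 141 to 79.7 CPM. *Gstm1* has close paralogs, so its value is uncertain where reads were shared.

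Among 14 partners and regulators of NRF2, 6 rose and 3 fell with PROTAC FAK degrader 1 (66.8% of all genes called), 1 rose and 4 fell with GSK215 (54.7%), and 5 rose and 5 fell with BSJ-04-0146 (54.6%). With library totals, 9 rose and 3 fell with PROTAC FAK degrader 1, 7 rose and 4 fell with GSK215, and 6 rose and 4 fell with BSJ-04-0146. The 3 that fell with PROTAC FAK degrader 1 were *Nfe2l3* (-1.17, from only 0.808 to 0.354 CPM), *Maff* (-0.64) and *Dpp3* (-0.37), and *Dpp3*, which encodes a KEAP1-binding peptidase, also fell with GSK215 (-0.34). *Cul3*, the scaffold of the ligase that degrades NRF2, fell with GSK215 (-0.33) and BSJ-04-0146 (-0.29). Among the small MAF genes, whose products pair with NRF2 on DNA, *Maff* fell from 42.0 ± 2.69 to 14.7 ± 0.298 CPM with GSK215 (-1.51, adjusted p = 3.74e-22) and to 19.0 CPM with BSJ-04-0146 (-1.14), and *Mafk* fell by 0.69 and 0.51 on the log2 scale with the same PROTACs. *Mafg*, added for comparison, had log2 differences of -0.02 and 0.01. With PROTAC FAK degrader 1 the related factor *Nfe2l1* rose from 259 to 494 CPM (0.93), *Gsk3b*, whose kinase marks NRF2 for degradation apart from KEAP1, by 0.81, and *Btrc*, which encodes the ligase adaptor for that route, by 0.61.

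Of 19 tested genes for other glutathione, thioredoxin and peroxide enzymes, 10 rose and 6 fell with PROTAC FAK degrader 1 (66.8% of all genes called), 7 rose and 6 fell with GSK215 (54.7%), and 10 rose and 6 fell with BSJ-04-0146 (54.6%). With library totals, 11 rose and 5 fell with GSK215. *Txnip*, which encodes an inhibitor of thioredoxin, rose from 26.2 ± 0.468 to 147 ± 5.04 CPM with PROTAC FAK degrader 1 (2.49, adjusted p = 2.5e-34) and by 1.47 and 1.52 with GSK215 and BSJ-04-0146. Catalase (*Cat*) rose by 0.77 and *Gpx8* changed by -0.69 with PROTAC FAK degrader 1. *Txnrd3* changed by -0.87 with GSK215 and the mitochondrial peroxiredoxin *Prdx3* by -0.67 with BSJ-04-0146. With VS-4718 9 of these genes rose and 6 fell (39.2% of all genes called), and *Prdx3* fell with 6 of the 7 compounds, IN10018 (-0.07) being the one with which it did not pass.

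Since *Aldh3a1* is also a target of the aryl hydrocarbon receptor, 8 genes of that receptor's battery were examined, of which 6 were tested. With GSK215, 4 rose (*Ahr*, *Ahrr*, *Cyp1a1* and *Cyp1b1*) and *Tiparp* fell (-0.18), beside 54.7% of all genes called, and with BSJ-04-0146 the same 4 rose (54.6%). With library totals 5 rose and 0 fell with GSK215, and all 6 rose with BSJ-04-0146. With PROTAC FAK degrader 1 (66.8%), *Ahr*, *Arnt*, *Ahrr* and *Tiparp* rose and *Cyp1b1* fell. *Ahr* itself rose with VS-4718 (0.64), GSK2256098 (0.31), defactinib (0.14) and all PROTACs, from 52.0 ± 2.52 CPM with DMSO to 82.0 ± 3.01 CPM with BSJ-04-0146 (0.66, adjusted p = 5.7e-16). Its partner *Arnt* rose with PROTAC FAK degrader 1 (0.95) and changed by 0.06 and 0.05, short of the threshold, with GSK215 and BSJ-04-0146, although with library totals it passed as higher with BSJ-04-0146. *Tiparp*, a target of the receptor, rose with PROTAC FAK degrader 1 (0.34). *Cyp1a1* and *Cyp1b1*, the classical targets, were too low for the rule on named genes and are named after their values were seen. *Cyp1a1* had 9 to 12 counts per library with DMSO, 29 to 58 with GSK215 and 87 to 108 with BSJ-04-0146 (log2 fold changes 2.45 and 3.62, adjusted p = 8.1e-11 and 9.36e-17), and 5 to 8 with PROTAC FAK degrader 1. *Cyp1b1* had 4 to 11 counts with DMSO, 62 to 81 with GSK215 and 73 to 79 with BSJ-04-0146 (3.88 and 3.96, adjusted p = 2.3e-15 and 1.01e-15), and 1 to 3 with PROTAC FAK degrader 1. Both genes also rose with VS-4718 (to 28 to 43 and 33 to 46 counts) and GSK2256098 (to 24 to 28 and 12 to 27 counts), and *Cyp1b1* with defactinib (to 21 to 30 counts), whereas neither passed with IN10018. *Cyp1a1*, *Cyp1b1* and *Aldh3a1* thus had their highest means with GSK215 and BSJ-04-0146 and their lowest with PROTAC FAK degrader 1, although *Cyp1a1* did not pass in the latter (adjusted p = 0.316). Among the kinase inhibitors the order differed, since *Aldh3a1* was higher with GSK2256098 than with VS-4718 and both *Cyp1a1* and *Cyp1b1* were higher with VS-4718.

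Of 12 other aldehyde dehydrogenase genes tested, 11 rose and 1 fell with PROTAC FAK degrader 1, the compound with the least *Aldh3a1*, with a median log2 fold change of 0.64 and 66.8% of all genes called, and the one that fell was *Aldh4a1* (-0.30), which did not pass with library totals. With GSK215 7 rose and 3 fell (54.7% of all genes called), and with BSJ-04-0146 9 rose and 2 fell (54.6%). The mitochondrial folate enzyme *Aldh1l2* rose from 116 ± 3.77 to 611 ± 16.0 CPM with PROTAC FAK degrader 1 (2.39, adjusted p = 3.3e-35) and fell to 35.5 CPM with GSK215 (-1.72) and 39.9 CPM with BSJ-04-0146 (-1.55). *Aldh18a1*, an enzyme of proline synthesis, likewise rose by 1.02 with the former and fell by 1.11 and 1.16 with the others. *Aldh6a1* (2.11), the fatty aldehyde dehydrogenase *Aldh3a2* (0.90) and mitochondrial *Aldh2* (0.63) rose most with PROTAC FAK degrader 1, and *Aldh3a2* rose by 0.35 and 0.36 with GSK215 and BSJ-04-0146. The 6 members of the family that were not tested had at most 15 counts in any library.

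Beside *Hmox1*, 10 genes of heme synthesis and breakdown were tested. With PROTAC FAK degrader 1, 5 rose and 2 fell, beside 66.8% of all genes called, and with library totals 6 rose and 1 fell. The synthesis genes *Ppox* (1.20, adjusted p = 3.13e-23), *Cpox* (0.75), *Urod* (0.58), *Alas1* (0.53) and *Fech* (0.13) rose, and *Blvra* (-0.33), which encodes the reductase of the biliverdin made by heme oxygenase, was among those that fell. *Alas1* encodes the rate-limiting enzyme. *Alas1* fell with GSK215 (-0.44), BSJ-04-0146 (-0.16) and 3 kinase inhibitors. *Cpox* fell by 1.02 and *Uros* rose by 0.78 with BSJ-04-0146. The constitutive heme oxygenase *Hmox2* had a log2 difference of -0.12 with PROTAC FAK degrader 1, short of the threshold. Of the calls given for genes under the naming rule, 7 were lost when 1 library was left out or the scaling was changed, namely *Ahr* and *Gstm1* with defactinib, *Blvrb* with VS-4718, *Sqstm1* with GSK2256098, *Ftl1* with IN10018, *Tiparp* with GSK215 and *Alas1* with BSJ-04-0146.

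Across the 8 group means on the log2(CPM + 4) scale, *Gsr* and *Hmox1* had a Pearson r of -0.92, *Nqo1* and *Aldh3a1* of 0.85 and *Gclm* and *Gsr* of 0.85. These values describe 8 points that share their libraries and DMSO group, and in each pair 1 group had the extreme mean of both genes, PROTAC FAK degrader 1 in the first and the last pair and BSJ-04-0146 in the second. The genes most like *Aldh3a1* among 9855 were *Fzd1* (r = 0.99), *Pmp22* (0.99) and *Zfp651* (0.98). *Pmp22*, a myelin protein gene, went from 12.6 CPM with DMSO to 31.9 CPM with GSK215 and 29.8 CPM with BSJ-04-0146. Those most like *Nqo1* were *Lgr6* (0.98), *Gprc5b* (0.97) and *Adamtsl5* (0.96).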

How the data were processed

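RNA of 24 libraries was sequenced after poly(A) selection. The deposited values are raw read counts per gene, which the authors made by trimming with Trimmomatic 0.36, alignment with STAR 2.5.2b to GRCm38 and counting with featureCounts (Subread 1.5.2), per the submitters' processing notes. The annotation and the strand setting are not given in the sources used here, and reads of paralogs or overlapping antisense genes may be shared. From these counts, CPM were computed with TMM scaling, and RPKM with exon lengths from GENCODE M21, which also gave the gene positions. After a filter on low counts 16070 of 49315 genes remained, and 1 model with all 24 libraries was fitted in edgeR 4.0.16 (R 4.3.3; quasi-likelihood test, Benjamini-Hochberg adjustment, threshold 0.05). Standard errors and 95% intervals come from this fit. The model was tested on simulated data.

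The 10 genes and the 6 lists of 102 other genes (87 tested) were chosen with earlier results of these data known. Of each list, up to 5 genes with the largest change against DMSO and a mean of at least 5 CPM were named, and for *Aldh3a1* and *Nqo1* the 3 genes with the highest correlation of group means. Replicate pairs differed by more than counting noise (chi-square per degree of freedom from 1.73 to 8.48), so none was a copy. Alternatives were DESeq2 1.42.0, limma 3.58.1 on log2(CPM + 4), library totals, no filter, a replicate term, only the libraries compared, and leaving out each library. Some genes of the lists are counted in the totals given but are not reported here by name.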

Additional observations from a re-analysis of the deposited data

How the results depend on the processing

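The differences of the 10 genes moved by less than the spread between replicates in 1118 of 1170 combinations of difference and setting. Many of these combinations leave out 1 of 3 libraries, which moves a group mean by less than its SD. That part of the count was thus largely fixed in advance and says little about robustness. The sign changed in 35 of the combinations, which among the 41 differences of at least 0.15 touched 1, that of *Nqo1* with defactinib. With library totals in place of TMM scaling, *Keap1* with GSK215 went from -0.11 to 0.0100 and *Txnrd1* with PROTAC FAK degrader 1 against the mean of the kinase inhibitors from -0.06 to 0.0069. Library totals shifted the median of all genes by 0.12 with GSK215 and by 0.11 with BSJ-04-0146, so small differences of either sign with these compounds depend on the scaling. With library totals, chosen for this count after seeing the data, the number of the 10 genes whose libraries did not overlap with DMSO was 6 with GSK215 in place of 10, and it stayed within 1.5 times for the other comparisons. The split of the other NRF2 targets into higher and lower moved with library totals, as given above. Their number called in either direction stayed within 1.5 times in 112 of 117 cases. The exceptions were all for GSK2256098, where the main count of 4 ranged from 1 to 3 when single libraries were left out (3 without DMSO replicate 3) and was 3 with DESeq2. For the other comparisons the ranges without single libraries were 7 to 10 for defactinib, 6 to 9 for VS-4718, 5 to 7 for IN10018, 22 to 23 for PROTAC FAK degrader 1, 22 to 23 for GSK215, 16 to 18 for BSJ-04-0146, 14 to 18 for GSK215 against BSJ-04-0146 and 21 to 24 for PROTAC FAK degrader 1 against the kinase inhibitors. Among the named genes of the lists, for which these settings were added after seeing the data, 1477 of 1560 combinations of a call and a setting kept the call and in 83 it missed the threshold, without a change of direction among them. The cause was not tested. Replicate numbers did not pair the libraries: over 84 pairs with the same number the mean correlation of deviations was -0.016, 9 were over 0.1, and 4 of 24 libraries correlated best with their own number. With the replicate number as a block the count was 24 with GSK215 and 16 with BSJ-04-0146, and the counts of the other comparisons did not change either. *Nqo1* had 47 to 182 counts per library, which limits the precision of its differences.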
